A study of Ovis aries with 24 samples.

Results

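TNFRSF11B encodes osteoprotegerin, and its transcript was followed in sheep across birth, in the ductus arteriosus and in the ascending aorta, at 3 stages. Of 15008 probes on the array, 2 named osteoprotegerin in their description, and both entered the test. Both carried the name LOC100037695, a gene ID that the RefSeq table of the assembly ARS-UI_Ramb_v3.0 gives to TNFRSF11B. The probes, A_70_P001451 and A_70_P001452, had 1 spot each and are called the brighter and the dimmer probe. TNFRSF11B is 1 of 697 genes named on the array and was chosen by its measured levels, namely the difference between the vessels at each stage and the rise at birth in each vessel. Those comparisons are therefore given as a description, with no test.

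The ductus arteriosus is a fetal shunt between the pulmonary artery and the aorta that shuts after delivery. The groups were the ductus and a segment of ascending aorta of preterm fetuses at 97 days of gestation, near-term fetuses at 136 days and newborn lambs of 12 hours, where full term is 145 days. The sample titles give 100 and 140 days for the fetuses. Each of the 6 groups held 4 arrays and 4 animals, so that n = 4 per group throughout, and no treatment or allele is given for any of them. Whole vessel was homogenised, so that fewer cells of a type and less RNA per cell cannot be told apart.

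Osteoprotegerin is a soluble receptor of the tumour necrosis factor receptor family. It has no membrane anchor and acts as a decoy: it binds RANKL, the product of TNFSF11, and keeps it from its receptor RANK on osteoclast precursors, and it also binds the death ligand TRAIL. Smooth muscle and endothelium of arteries are known to make it, and loss of the gene in mice gives both bone loss and arterial calcification.

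Levels are log2 of the processed signal minus log2 of the 75th percentile of the signals on the same array, so that 0 is the 75th percentile, and they are compared between arrays for 1 probe and never between probes. A probe is called where limma's adjusted p is under 0.05. Between 66.2% and 94.4% of the spots of an array were well above background. The spike-in detection limit that the scanner files state was above 1.5 on 12 of 24 arrays: 3 in preterm aorta, 3 in near-term aorta, 2 each in newborn aorta, preterm ductus and near-term ductus, and 0 in newborn ductus. Each stage lay on a slide of its own, with the ductus in 1 column and the aorta in the other. Effects of stage and slide cannot be told apart, nor can those of vessel and column. Of 9 smooth muscle markers 2 were tested, MYLK and CNN1. Their summed level ran from 5.44 to 7.62, far above the 75th percentile in every group. It ran from 6.84 to 7.62 in the near-term ductus, wholly above the near-term aorta (5.44 to 6.72) and the preterm ductus (5.52 to 6.48). In newborns it ran from 6.41 to 7.18 in the ductus and from 6.04 to 7.21 in the aorta. CNN1 was called higher at birth in the aorta, by 0.83 (limma adjusted p = 0.0264), where MYLK did not rise. That call was lost under 4 of 10 alternatives and with 5 of 8 arrays left out in turn.

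In the aorta of preterm fetuses the brighter TNFRSF11B probe read −0.82, −1.01, −1.44 and −1.34, a mean of −1.15 ± 0.29 (SD). In the preterm ductus it read 0.13, −0.55, 0.16 and −0.30, a mean of −0.14 ± 0.34. The near-term aorta gave −0.95, −0.39, −0.64 and −0.88, with a mean of −0.72 ± 0.25. All 8 fetal aorta arrays thus lay below the 75th percentile of their array, while the preterm ductus lay around it.

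The near-term ductus gave 0.24, 0.31, 1.25 and 0.27, a mean of 0.52 ± 0.49, in which replicate 3 stood well above the others. The newborn aorta gave 1.28, 1.38, 0.69 and 0.26, a mean of 0.90 ± 0.53. The newborn ductus gave 2.08, 1.79, 1.82 and 1.83, a mean of 1.88 ± 0.13, the narrowest of the 6 groups. The processed signals before scaling ran from 166.2 in near-term aorta replicate 1 to 4261 in newborn ductus replicate 1. The brighter probe was well above background on all 24 arrays.

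**Figure D1:**
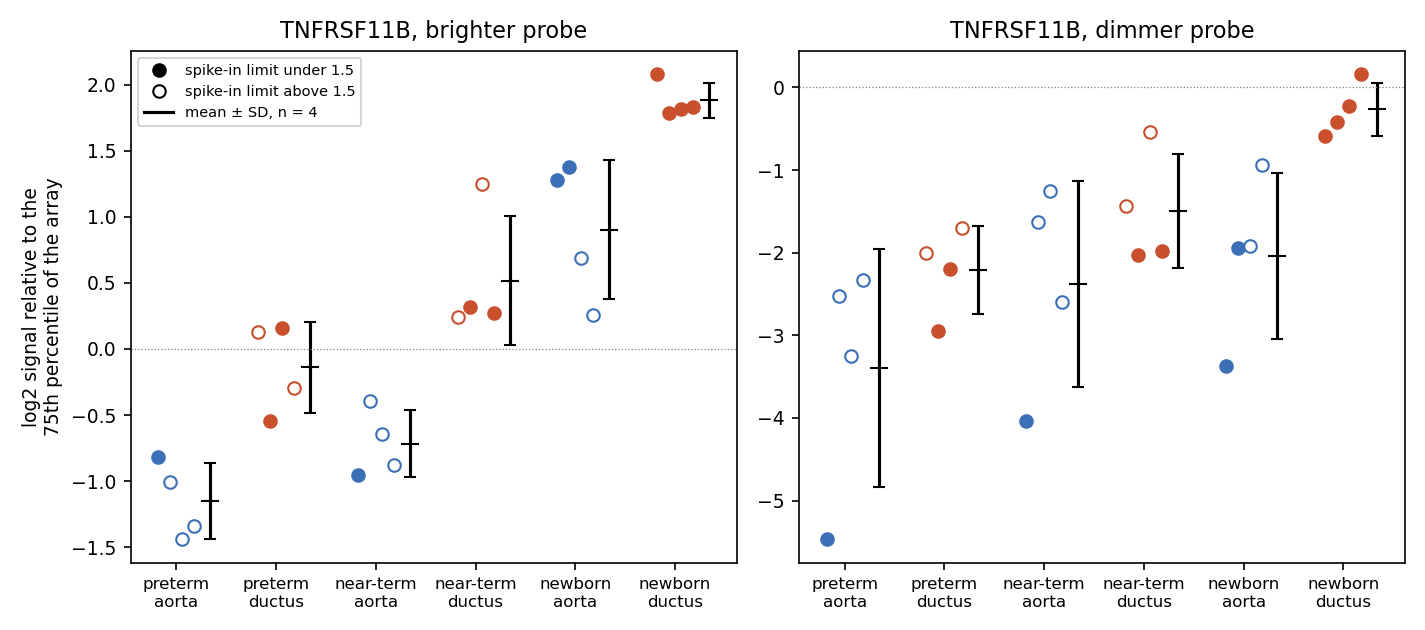
Log2 level of the brighter (left) and the dimmer (right) TNFRSF11B probe relative to the 75th percentile of the array, 1 point per array (blue aorta, red ductus; open points, spike-in limit above 1.5), with the mean ± SD of each group of 4 arrays. On the left the newborn ductus lies between 1.79 and 2.08, above every other array; on the right the newborn ductus is also the highest group by mean, and the aorta groups spread widely.

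Ordered by mean, the level rose from preterm aorta through near-term aorta, preterm ductus, near-term ductus and newborn aorta to newborn ductus. The span from the first to the last was 3.03 on the log2 scale, or 8.18-fold. Of the 5 neighbouring pairs in this order, preterm and near-term ductus did not overlap, and neither did newborn aorta and newborn ductus. The other 3 pairs overlapped, and near-term ductus and newborn aorta, 0.38 apart, differed by less than the pooled SD of 0.51.

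The ductus carried more TNFRSF11B transcript than the aorta at each of the 3 stages, by 1.97-fold to 2.35-fold. In preterm fetuses the difference was 1.01 ± 0.26 on the log2 scale (standard error of the limma fit), or 2.02-fold. The highest aorta array, at −0.82, lay below the lowest ductus array, at −0.55. Over all probes, 3.17% had a ductus group wholly above the aorta at this stage, and 1.45% had a larger difference.

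Near term the difference was 1.23 ± 0.26, or 2.35-fold, and the highest aorta array, at −0.39, lay below the lowest ductus array, at 0.24. The ductus lay wholly above the aorta for 3.61% of all probes, and 0.707% had a larger difference. Without near-term ductus replicate 3 the difference was 0.99.

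In newborns the difference was 0.98 ± 0.26, or 1.97-fold, and the highest aorta array, at 1.38, lay below the lowest ductus array, at 1.79. The ductus lay wholly above the aorta for 6.73% of all probes here, and 4.90% had a larger difference. In this comparison the spike-in limit moved with the result: it was above 1.5 on 2 of the 4 aorta arrays and on 0 of the ductus arrays. Those 2 aorta arrays read 0.69 and 0.26 and the others 1.28 and 1.38, so that the difference over arrays with a limit under 1.5 was 0.55.

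The transcript was higher after birth in both vessels. In the ductus the newborn level exceeded the near-term level by 1.36 ± 0.26, or 2.57-fold, and the highest near-term array, at 1.25, lay below the lowest newborn array. The newborn ductus lay wholly above the near-term ductus for 7.27% of all probes, and 1.60% had a larger difference. The median difference over all probes was −0.31 in this comparison. It was −0.07 over the probes well above background on all 24 arrays. With quantile normalisation the median was −0.016 and with median centring 0.002, so that its distance from 0 depends on the dim probes kept and on the scaling. Over the 2 near-term and 4 newborn arrays with a limit under 1.5 the rise was 1.59.

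In the aorta the newborn level exceeded the near-term level by 1.62 ± 0.26, or 3.07-fold, and the highest near-term array, at −0.39, lay below the lowest newborn array, at 0.26. The newborn aorta lay wholly above the near-term aorta for 5.70% of all probes. A larger difference was found for 32 of 13997 probes, or 0.229%. By the dimmer probe, 14.2% of all probes exceeded the aortic change and 2.02% the ductal one, so that the probes placed the 2 changes in opposite order. By the brighter probe the aortic change was 1.11 over aorta arrays with a limit above 1.5 and 2.28 over those with a limit under 1.5, the latter with 1 near-term array. With normexp background correction it was 1.20.

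The birth change of the ductus minus that of the aorta was −0.26 ± 0.37, less than its own standard error. With normexp it was 0.20, and leaving out 1 array at a time took it from −0.47 to −0.01, the value nearest to 0 being that without near-term ductus replicate 3. The ductus mean lay 1.23 above the aorta mean near term and 0.98 above it in newborns, as the plot of levels shows. Of all probes tested, 0.393% were called for such a difference between the vessels.

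**Figure D2:**
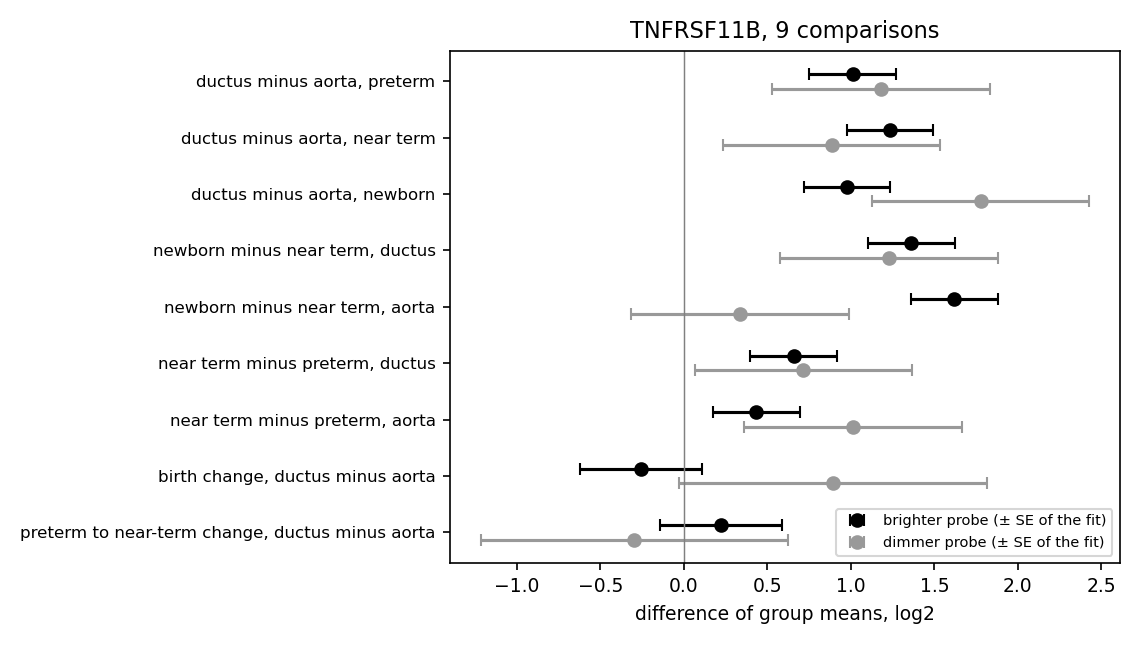
Differences of group means for TNFRSF11B on the log2 scale in 9 comparisons, with the standard error of the limma fit as bars, for the brighter (black) and the dimmer (grey) probe; each compared group holds 4 arrays. The brighter probe gives 0.98 to 1.23 for the vessel difference at the 3 stages and 1.36 and 1.62 for birth in ductus and aorta; the dimmer probe has wider bars and gives 0.34 for birth in the aorta.

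All 5 of these comparisons had non-overlapping groups with the higher level in the ductus or after birth for 3 of 13997 probes, or 0.0214%. The first was the brighter TNFRSF11B probe, which was chosen for this. The other two, A_70_P041886 and A_70_P046781, carry only the accession of an expressed sequence tag and are unnamed here. A_70_P041886 differed by 1.16, 0.97 and 0.82 between the vessels from preterm to newborn and by 0.59 and 0.74 at birth in ductus and aorta. A_70_P046781 differed by 0.55, 0.94 and 3.38 between the vessels and by 3.93 and 1.49 at birth. Both were picked out after their values were seen.

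The change between the preterm and near-term fetuses was not among the comparisons for which the gene was chosen, and was tested. It shares its near-term arrays with the birth and the near-term vessel comparisons, and its preterm arrays with the preterm vessel comparison. In the ductus the level was 0.66 ± 0.26 higher near term, or 1.58-fold, and did not pass the threshold (limma adjusted p = 0.343 over all 13997 probes). The highest preterm array, at 0.16, lay just below the lowest near-term array, at 0.24, and an exact permutation test of the 4 against 4 arrays gave a two-sided p of 0.0286, the smallest this design allows. Adjusted over both vessels, that p was 0.0571. Near term was wholly above preterm for 2.86% of all probes, and 0.314% were called. Without near-term ductus replicate 3 the difference was 0.41.

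In the aorta the near-term level was 0.43 ± 0.26 higher, or 1.35-fold, with overlapping groups (limma adjusted p = 0.646, and 0.493% of all probes called). The exact permutation test gave a two-sided p of 0.114, also after adjustment over both vessels. Over the aorta arrays with a limit under 1.5, 1 at each stage, the difference had the opposite sign, −0.14. The preterm to near-term change of the ductus minus that of the aorta was 0.22 ± 0.37. It equals the near-term vessel difference minus the preterm one, for which the gene was chosen, and is given with no test. No probe on the array passed limma's threshold for that difference, and 224 had an unadjusted p under 0.05. Both fetal changes were positive, and the median over all probes was 0.22 in the ductus and 0.13 in the aorta. Over the probes well above background on all 24 arrays the median was 0.05 in the ductus and −0.006 in the aorta. Set against the brighter probe, 26.8% of all probes rose by more in the ductus and 27.5% in the aorta, in contrast to its small shares at birth. Set against the dimmer probe, 24.8% rose by more in the ductus, against 2.02% at birth. In the aorta the order was reversed by the dimmer probe, with 5.25% from preterm to near term and 14.2% at birth.

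The dimmer probe gave the same top and bottom of the order, with a wider spread. In preterm aorta it read −5.47, −2.52, −3.25 and −2.33, in which replicate 1 was not well above background. In near-term aorta it read −4.04, −1.63, −1.25 and −2.60. In newborn aorta it read −3.38, −1.94, −1.91 and −0.94. The 3 aorta groups overlapped throughout, and in each the lowest value was replicate 1. Those arrays had spike-in limits of 0.88, 0.95 and 0.10 from preterm to newborn, all under 1.5. In the near-term and the newborn aorta the dimmer probe read higher the higher the limit of the array. The part of the limit in these levels was not tested.

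In the preterm ductus the dimmer probe read −2.00, −2.94, −2.20 and −1.70, and in the near-term ductus −1.44, −2.03, −0.54 and −1.98. In the newborn ductus it read −0.58, −0.42, −0.23 and 0.16. Only near-term ductus replicate 3, at −0.54, reached into the newborn range, the same array that stood high for the brighter probe.

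By the dimmer probe the ductus exceeded the aorta by 1.18 ± 0.65 in preterm fetuses, 0.88 ± 0.65 near term and 1.78 ± 0.65 in newborns. Of these 3, the newborn groups did not overlap. The rise at birth was 1.23 ± 0.65 in the ductus, close to that of the brighter probe. In the aorta it was 0.34 ± 0.65, against 1.62 by the brighter probe, and the near-term and newborn groups overlapped. The birth change of the ductus minus that of the aorta was accordingly 0.89 ± 0.92, of the opposite sign. The 3 vessel differences and both birth rises had the same sign by both probes. By the dimmer probe the aortic rise was less than its standard error, so that its size rests on the brighter probe. The spike-in limit was above 1.5 on 3 near-term and 2 newborn aorta arrays. Only the newborn vessel groups did not overlap by the dimmer probe.

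The change from preterm to near term by the dimmer probe was 0.72 ± 0.65 in the ductus (limma adjusted p = 0.662) and 1.01 ± 0.65 in the aorta (limma adjusted p = 0.690). The exact permutation test gave two-sided p-values of 0.171 and 0.371. Over the 24 arrays the 2 probes correlated with r = 0.66, and over the 6 group means with r = 0.92. Over deviations from the group means r was −0.02. By mean both probes put preterm aorta lowest and newborn ductus highest, while newborn aorta lay above near-term ductus by the brighter probe and below it by the dimmer. The points share arrays, scaling and the spike-in limits, and the values are a description.

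**Figure D3:**
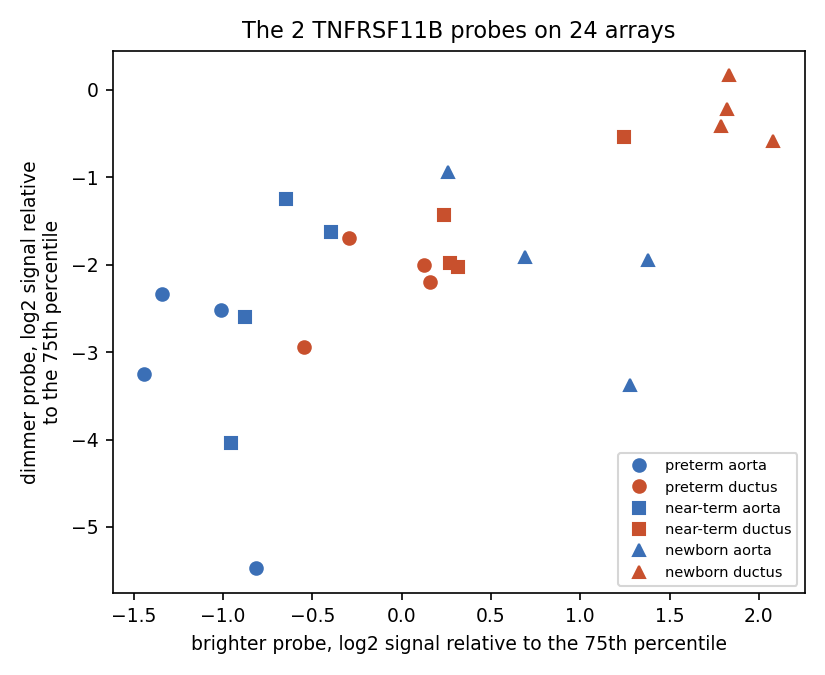
Log2 levels of the brighter (x axis) and the dimmer (y axis) TNFRSF11B probe relative to the 75th percentile, 1 point per array for 24 arrays, by vessel (blue aorta, red ductus) and stage (circle preterm, square near term, triangle newborn). The 4 newborn ductus arrays lie at the upper right, at 1.79 to 2.08 on the x axis and −0.58 to 0.16 on the y axis; the newborn aorta arrays lie at 0.26 to 1.38 on the x axis and spread from −3.38 to −0.94 on the y axis.

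Of 7 genes whose products bind osteoprotegerin or its ligands, the array named 1, TNFSF11, which encodes RANKL. Its brighter probe read −5.55, −3.63, −3.30 and −3.93 in preterm aorta, −4.99, −3.37, −2.22 and −3.63 in near-term aorta, and −6.37, −5.46, −4.02 and −1.19 in newborn aorta. In the ductus it read −2.92, −7.49, −7.61 and −3.61 in preterm fetuses and −2.07, −6.42, −2.73 and −6.71 near term. In the newborn ductus it read −7.75, −7.41, −7.05 and −7.82 and was not well above background on any array.

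The TNFSF11 level followed the spike-in limit of the array. The probe was well above background on 12 of the 12 arrays with a limit above 1.5, where it ran from −4.02 to −1.19, and on 0 of the 12 with a limit under 1.5, where it ran from −7.82 to −4.99. The brighter TNFRSF11B probe was well above background on all arrays of both kinds. It ran from −1.44 to 1.25 where the limit was above 1.5 and from −0.95 to 2.08 where it was under 1.5, and the second range holds all newborn ductus arrays.

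**Figure D4:**
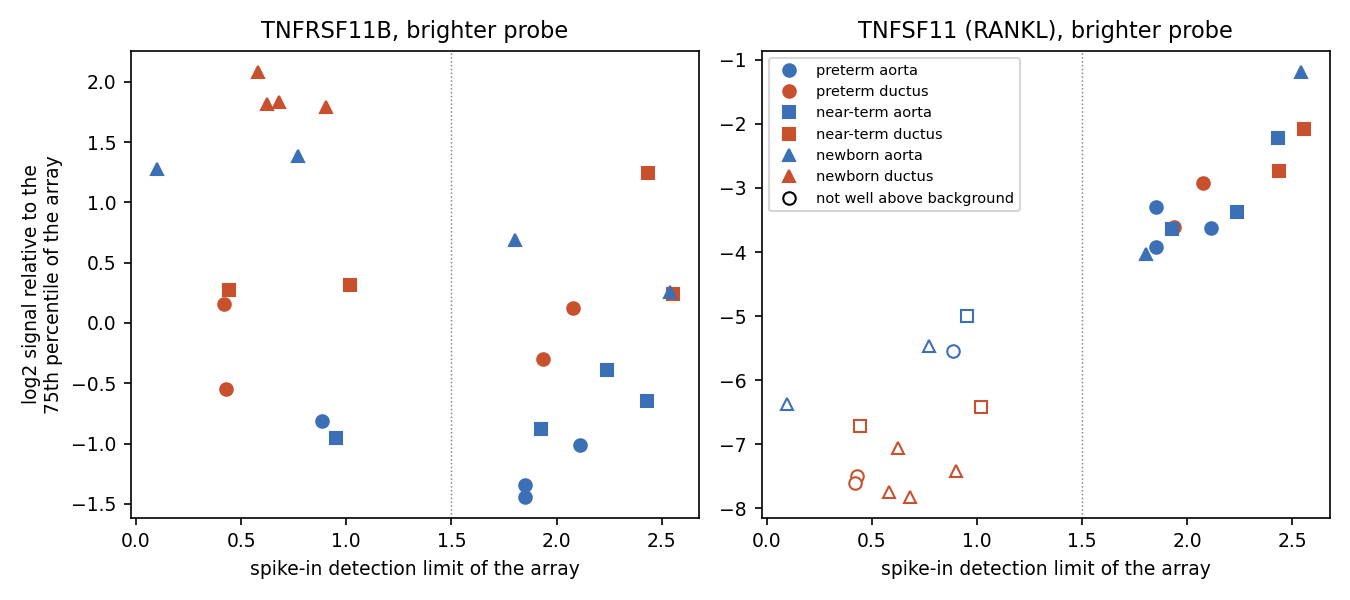
Log2 level relative to the 75th percentile against the spike-in detection limit stated for each of 24 arrays, for the brighter probes of TNFRSF11B (left) and TNFSF11 (right), by vessel (blue aorta, red ductus) and stage (circle preterm, square near term, triangle newborn); open symbols are not well above background. TNFSF11 lies at −4.99 or below on every array with a limit under 1.5 and at −4.02 or above on the others, while TNFRSF11B is spread over both sides.

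In newborns the fitted difference of TNFSF11 between ductus and aorta was −3.25 ± 1.22 and did not pass the threshold (limma adjusted p = 0.0946). The groups did not overlap. Against the lowest signal well above background on the ductus arrays the aorta was at least 2.61-fold higher by the mean of its 4 arrays, of which 2 were well above background. The bound was 1.29-fold without newborn aorta replicate 4 and 4.25-fold without replicate 1. Against the near-term ductus the newborn ductus differed by −3.02 ± 1.22 (limma adjusted p = 0.110). With the spike-in limit as a covariate these differences of TNFSF11 were −1.62 and −1.40 (limma adjusted p = 0.0739 and 0.131). Over arrays with a limit under 1.5 they were −1.59 and −0.94 (limma adjusted p = 0.0242 and 0.114), so that the newborn vessel difference passed the threshold there, between values none of which was well above background. The newborn vessel difference of TNFSF11 also passed with quantile normalisation, at −2.44 (limma adjusted p = 0.0435), and that of the newborn against the near-term ductus passed with normexp, at −1.60 (limma adjusted p = 0.0148). A ratio of TNFSF11 to TNFRSF11B was not formed, since the ligand was below background on 12 of 24 arrays.

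Further genes around osteoprotegerin were taken from lists of its known surroundings, chosen with earlier results of these data in view, and 63 of their members were tested. Of the 63, limma called 2 between the vessels in preterm fetuses (0.707% of all probes), 1 near term (1.15%) and 16 in newborns (10.1%). It called 11 between near term and newborn in the ductus (10.8%) and 2 in the aorta (6.44%). From preterm to near term it called 2 in the aorta (0.493%) and 0 in the ductus (0.314%), where 11 of 63 had an unadjusted p under 0.05, against 11.3% of all probes. The newborn ductus enters both of the comparisons with the most calls.

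The receptors and ligands of the tumour necrosis factor family had 5 of 29 members tested. FAS, a death receptor, and CD40, a receptor of immune and vascular cells, were called higher in the newborn ductus than in the newborn aorta, by 1.24 ± 0.34 (limma adjusted p = 0.0241) and 2.11 ± 0.48 (limma adjusted p = 0.00901). Both also rose at birth in the ductus, FAS by 1.55 ± 0.34 and CD40 by 2.00 ± 0.48 (limma adjusted p = 0.00588 and 0.0114). CD40 averaged −2.95 in the near-term ductus and −0.95 in the newborn ductus, and FAS −4.10 and −2.55. The median of the 5 was 1.28 at birth in the ductus and −0.15 in the aorta. In the aorta limma called 0 of 5, against 6.44% of all probes. At an unadjusted p under 0.05 there were 0 of 5, against 19.9% of all probes. Over arrays with a limit under 1.5 none of these 4 calls passed the threshold. The vessel call of FAS was lost under 4 of 10 alternatives in all and with 5 of 8 arrays left out in turn. With normexp the rise of FAS in the ductus was 0.24 and its call was lost, and a second FAS probe gave 1.00 there (limma adjusted p = 0.115). A second CD40 probe was called in both comparisons.

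The genes downstream of RANK and of osteoclasts had 4 of 18 members tested: FOS, ITGB3, ITGAV and TYROBP. FOS, an immediate early transcription factor, was higher in the newborn ductus than in the newborn aorta by 2.68 ± 0.65 (limma adjusted p = 0.0128), a call lost without newborn ductus replicate 3. The median of the 4 was −0.24, against −0.28 over all probes. At birth 0 of 4 passed limma's threshold in either vessel, against 10.8% of all probes in the ductus and 6.44% in the aorta. At an unadjusted p under 0.05 there was 1 in the ductus and 0 in the aorta, against 33.8% and 19.9% of all probes.

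Of the NF-kappa-B pathway, through which RANK signals, 6 of 23 genes were tested. NFKBIA, the inhibitor that holds the factor in the cytoplasm and is itself induced by it, rose at birth in the ductus from 1.68 ± 0.41 to 3.27 ± 0.35, by 1.59 ± 0.30 (limma adjusted p = 0.00178). It was higher in the newborn ductus than in the newborn aorta by 0.95 ± 0.30 (limma adjusted p = 0.0476), a call lost under 6 of 10 alternatives and with 5 of 8 arrays left out in turn. TLR2, a receptor of bacterial lipoproteins, was higher by 1.34 ± 0.33 (limma adjusted p = 0.0145), a call lost under 2 alternatives and without newborn ductus replicate 4. TLR4, the receptor of endotoxin, was lower in the preterm ductus than in the preterm aorta, with −1.46 ± 0.27 (limma adjusted p = 0.00976). That TLR4 call was lost under 6 of 11 alternatives and without preterm ductus replicate 1.

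Cytokines and growth factors known to regulate osteoprotegerin had 22 of 26 members tested, of which limma called 5 higher and 0 lower in the newborn ductus than in the newborn aorta. Of all 13997 probes, 721 were called higher and 695 lower in that comparison, or 10.1%. IL6, an inflammatory cytokine, averaged −0.10 ± 0.74 in the newborn ductus and was not well above background on any newborn aorta array, so that the ductus was at least 42.4-fold higher (limma adjusted p = 2.07e-07). VEGFA, an endothelial growth factor, was higher by 4.75 ± 0.72 and IL1A, an inflammatory cytokine, by 4.53 ± 0.73 (limma adjusted p = 0.000279 and 0.000522). Both were well above background on 2 of the 4 newborn aorta arrays. The median of the 22 was 0.45, against −0.28 over all probes.

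IL1A had the vessel difference at the earlier stages too, 4.08 ± 0.73 in preterm fetuses and 3.69 ± 0.73 near term (limma adjusted p = 0.00713 and 0.0127), each the only called member of its list. The near-term call was lost with replicate 1 of that aorta or replicate 3 of that ductus left out. IL1A did not pass the threshold at birth in either vessel. At birth in the ductus, where 10.8% of all probes were called, limma called 4 members of the list higher and 1 lower. They included IL6, higher by 5.67 ± 0.54 with 1 near-term array well above background, TGFB1, a profibrotic growth factor, higher by 1.02 ± 0.20, and IL1B, higher by 1.89 ± 0.47 (limma adjusted p = 1.15e-06, 0.00215 and 0.0138). The call of IL1B was lost under 3 of 10 alternatives. The median of the list was 0.01.

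At birth in the aorta the brighter TNFRSF11B probe had its larger rise, and 6.44% of all probes were called. There limma called 0 of the 22 higher and 1 lower. That was PDGFB, a mitogen of smooth muscle, at −1.31 ± 0.35 (limma adjusted p = 0.0290), a call lost under 5 of 11 alternatives and with 5 of 8 arrays left out in turn. A second probe of PDGFB gave −1.37 and a second probe of VEGFA −2.05 (limma adjusted p = 0.00326 and 0.0254), while the brighter VEGFA probe gave −1.73 and did not pass (limma adjusted p = 0.178). The median of the 22 was −0.46, against −0.24 over all probes, and 4 of 22 had an unadjusted p under 0.05, against 19.9% of all probes.

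Of the hormone receptors and prostanoid genes 19 of 22 were tested. PTGS2, the inducible cyclooxygenase, was higher in the newborn ductus than in the newborn aorta by 4.36 ± 0.30 and rose at birth in the ductus by 3.66 ± 0.30 (limma adjusted p = 2.44e-08 and 1.90e-07). A dim second probe of PTGS2 did not show this: it gave −1.94 and −2.07 (limma adjusted p = 0.244 and 0.190). PTGS1, the constitutive cyclooxygenase, and HSD11B1, which regenerates active cortisol, were higher in the newborn ductus by 0.87 ± 0.21 and 1.59 ± 0.40 (limma adjusted p = 0.0103 and 0.0159). The call of PTGS1 was lost under 2 of 10 alternatives. That of HSD11B1 was lost under 3 of 10 and without newborn ductus replicate 1 or 4, and its second probe gave 0.77 (limma adjusted p = 0.487). At birth THRB, a thyroid hormone receptor, rose in the ductus by 1.04 ± 0.23 (limma adjusted p = 0.00686). The call of THRB was lost under 2 of 10 alternatives, normexp and only the groups compared, and its lowest value over the alternatives was 0.20. AGTR2, an angiotensin receptor of fetal tissue, fell in the aorta, with −2.33 ± 0.56 (limma adjusted p = 0.0164), a call lost under 4 of 10 alternatives and without near-term replicate 1 or 2 or newborn replicate 1. In the preterm to near-term aorta HSD11B1 rose by 1.86 ± 0.40 and PTGS1 fell by 1.01 (limma adjusted p = 0.0412 and 0.0279); the first call was lost without any 1 of the 8 arrays and the second without any of 7.

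Of the mineralisation and bone matrix genes 8 of 27 were on the array and 7 were tested. BGLAP, which encodes osteocalcin, and CHRD, a BMP antagonist, were lower in the newborn ductus than in the newborn aorta, with −1.92 ± 0.54 (limma adjusted p = 0.0298) and at least 2.04-fold (limma adjusted p = 0.0459). The call of BGLAP was lost under 4 of 10 alternatives and with 5 of 8 arrays left out in turn, and that of CHRD under 4 of 9 and with 7 of 8. The bound for CHRD was 1.29-fold without newborn aorta replicate 4 and 4.00-fold without replicate 2, and its other probe did not pass (limma adjusted p = 0.113). TNFRSF11B was higher in the same comparison. BGLAP averaged −0.71 ± 0.87 in the newborn aorta and −2.62 ± 1.19 in the newborn ductus, and its groups overlapped. The median of the 7 was −1.36, against −0.28 over all probes. Of 7 markers of bone and cartilage cells BGLAP was the only one tested.

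Markers of other cell types moved with the birth and the newborn vessel comparisons. Of 8 macrophage markers 2 were tested, CD14 and CD86. CD14, the endotoxin co-receptor of monocytes, rose at birth by 1.51 ± 0.21 in the ductus and by 1.07 ± 0.21 in the aorta (limma adjusted p = 8.09e-05 and 0.00456). The summed level of both markers ran from −1.41 to −0.89 in the near-term ductus and from 0.14 to 0.51 in the newborn ductus. In the aorta it ran from −1.23 to −0.99 near term and from −0.81 to 0.26 in newborns. CD14's aortic call was lost under 4 of 11 alternatives. CD86 did not rise with it there: 1 of the 2 markers was above 0, with a median of 0.25, against −0.24 over all probes. In the ductus both were above 0 at birth, with a median of 1.12, against −0.31 over all probes.

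Of 11 endothelial markers 6 were tested. Their summed level ran from 1.16 to 1.63 in the newborn ductus and from −0.70 to 0.86 in the other 5 groups. SELP, the adhesion molecule P-selectin of endothelium and platelets, rose at birth in the ductus by 3.02 ± 0.38 (limma adjusted p = 3.82e-05). NOS3, the endothelial nitric oxide synthase, was higher in the newborn ductus than in the newborn aorta by 1.60 ± 0.35 (limma adjusted p = 0.00589). Not all 6 rose: at birth 4 were above 0 in the ductus, with a median of 0.24, against −0.31 over all probes. In the aorta 1 was, with a median of −0.57, against −0.24. There KDR was called lower, at −0.93 (limma adjusted p = 0.0333), a call lost under 6 of 11 alternatives and with 6 of 8 arrays left out in turn.

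Of 7 fibroblast markers 4 were tested, with a larger summed level in ductus than aorta. It ran from 6.07 to 6.38 in the ductus and 5.35 to 5.89 in the aorta of preterm fetuses, from 5.74 to 6.31 and 4.44 to 5.40 near term, and from 5.56 to 6.23 and 3.85 to 4.99 in newborns, with no overlap at any stage. The members did not move alike: DCN and C3 had the higher mean in the ductus at each stage, and the collagens COL1A1 and COL3A1 the lower. In newborns DCN, the matrix proteoglycan decorin, was higher in the ductus by 1.31 ± 0.25 and C3, a complement component, by 2.63 ± 0.39 (limma adjusted p = 0.00265 and 0.000239). COL1A1 differed by −0.44 and COL3A1 by −0.75 (limma adjusted p = 0.321 and 0.286), and another COL3A1 probe was called lower, at −1.24 (limma adjusted p = 0.0440).

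Of 8 neutrophil markers 2 were tested, the antimicrobial peptides CATHL1B and BAC5, and both were called lower in the newborn ductus than in the newborn aorta, with −3.75 ± 1.08 and −3.46 ± 1.08 (limma adjusted p = 0.0310 and 0.0467). Each was well above background on 1 newborn ductus array. Their summed level ran from −6.05 to −2.67 in the newborn ductus and from −2.39 to −0.45 in the newborn aorta, while near term it overlapped, from −6.09 to −0.61 in the ductus and −2.41 to 0.31 in the aorta. The calls of CATHL1B and BAC5 were lost under 5 and 6 of 9 alternatives and with 6 and 7 of 8 arrays left out in turn. Of 6 blood and liver markers 3 were tested, with overlapping sums, from 1.53 to 4.08 in the newborn ductus and −0.23 to 2.83 in the newborn aorta. Of these ALB, which encodes albumin, was called lower in the newborn ductus, by at least 6.90-fold (limma adjusted p = 0.0342), or 4.11-fold without newborn aorta replicate 4. The call of ALB was lost under 2 of 9 alternatives and with 5 of 8 arrays left out in turn, and its other probe gave −0.55 (limma adjusted p = 0.591). Of 8 lymphocyte markers 4 were tested. CXCR4, a chemokine receptor, was higher in the newborn ductus by 1.92 ± 0.32 (limma adjusted p = 0.000604), a call lost with normexp. It was the only 1 of the 4 with a difference above 0, and their median was −1.37, against −0.28 over all probes. Of the 4 markers, 1 was well above background on all arrays. The spike-in limit was above 1.5 on 0 newborn ductus and 2 newborn aorta arrays. The summed levels overlapped, from −1.64 to −0.38 in the ductus and −2.76 to −0.46 in the aorta. The part of any of these cell types in the TNFRSF11B levels was not tested.

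Genes were also ranked by the likeness of their levels to the brighter TNFRSF11B probe, as Pearson's r over the 24 arrays, among 662 other named genes. The arrays share their groups, scaling and spike-in limits, so r is a description. ETS2, a transcription factor, was most like it with r = 0.91. Its means were −1.56, −0.98 and −0.18 in the aorta and −0.90, −0.25 and 0.45 in the ductus from preterm to newborn. Over deviations from the group means r was 0.51, and it was 0.98 over the 6 group means. Of the 13996 other probes tested, 2 unnamed ones had a higher r over the 24 arrays, A_70_P020691 and A_70_P049396, both with 0.91.

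The next were SLC16A1, a transporter of lactate (r = 0.84), TIMP1, an inhibitor of matrix metalloproteinases (0.83), and IGFBP3, which binds insulin-like growth factors (0.83). CD14 (0.82), CXCL8, the neutrophil chemokine interleukin 8 (0.81), CREM, a regulator of cyclic AMP responses (0.81), and CD9, a tetraspanin (0.81), followed. Within groups r ran from 0.07 for CREM to 0.60 for CD9. The genes differed in where they moved: CXCL8 averaged −4.41, −3.78 and 0.68 in the ductus from preterm to newborn and −4.01, −3.69 and −0.70 in the aorta, and CD9 averaged −1.82 in the near-term aorta and −2.02 in the newborn aorta.

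The 2 lowest were TM7SF2, a reductase of cholesterol synthesis (r = −0.88), and PHF14, a nuclear protein with zinc fingers (r = −0.81). TM7SF2 averaged 0.05 in preterm aorta and −2.60 in newborn ductus, the ends of the TNFRSF11B order reversed. With median centring r was −0.75 for TM7SF2 and −0.39 for PHF14.

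**Figure D5:**
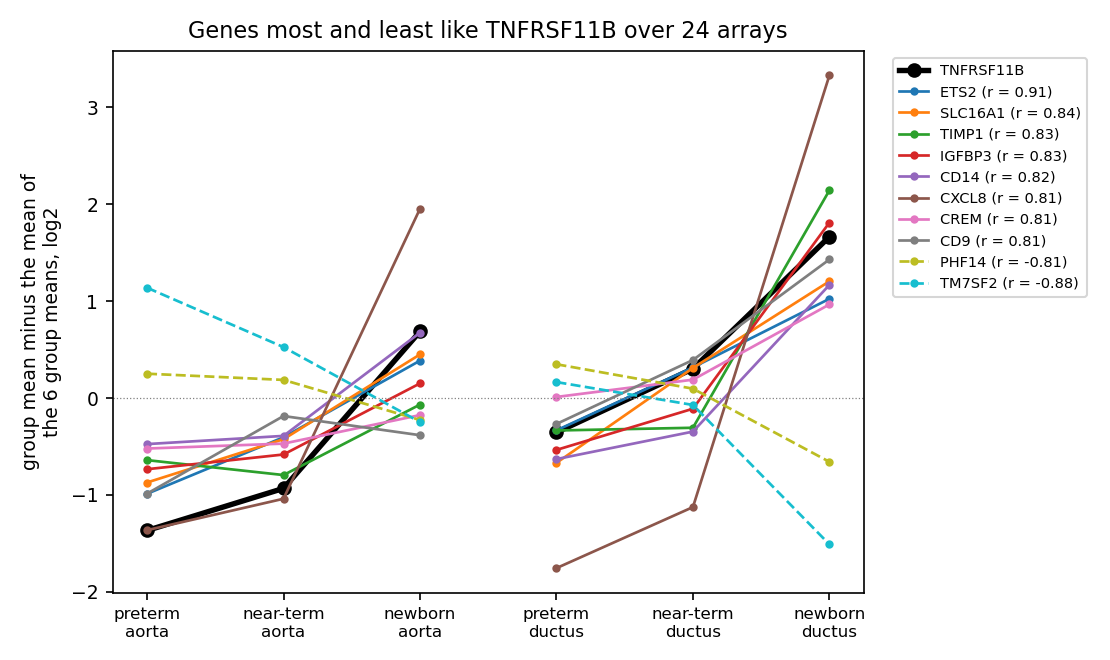
Group means of 4 arrays minus the mean of the 6 group means, on the log2 scale, for the brighter TNFRSF11B probe (black), the 8 genes with the highest and the 2 with the lowest Pearson's r to it over 24 arrays (dashed), by vessel and stage. TNFRSF11B climbs in both vessels from preterm to newborn; ETS2 (r = 0.91) follows at a smaller range, and TM7SF2 (r = −0.88) runs the opposite way.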

How the data were processed

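Cy3-labelled RNA was read on single-colour Agilent arrays, per the labels. The deposited files give a linear intensity for each spot, from which Agilent Feature Extraction 9.5.3.1 had subtracted the background, per the file headers. No normalisation between arrays is recorded in the sources used here. Control spots were dropped, as were 2 to 124 outlier spots of each array. From the log2 of the deposited intensity, the log2 of the array's 75th percentile over non-control spots (322.1 to 1143) was subtracted. The test took 13997 probes, those that at least 4 of the 24 arrays showed well above background. A limma fit (limma 3.58.1 in R 4.3.3, two-sided) of 6 group means over all arrays gave 9 comparisons, with Benjamini-Hochberg adjustment within each. It was tested on simulated data. Symbols came from the array's annotation and RefSeq names, and 1245 probes received 1 of 697 symbols. Of several probes of a gene the brightest was used.

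Where a probe was above background on no array of a group, a fold is given as a bound, from the brighter group's mean and the higher of 2 dim values, the probe itself and the lowest signal of any probe well above background. The number of arrays limits the precision, and the labels do not say whether ductus and aorta came from the same animals.

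The osteoprotegerin probes and the gene lists were chosen with earlier results of these data known. Named genes were both osteoprotegerin probes, its measured partner, up to 3 called members with the smallest p of each list and comparison (or the 1 or 2 smallest where none was called), and the 8 highest and 2 lowest genes by likeness. Some genes under this rule are left out of the text. Alternatives were normexp background correction (offset 50), quantile normalisation, median centring, filters on dim probes, outlier spots kept, only the groups compared, the replicate number as a block, the spike-in limit as a covariate, arrays with a limit under or above 1.5, each array left out and, added after seeing the data, the dimmer probe.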

Additional observations from a re-analysis of the deposited data

Results flagged for a closer look

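TNFRSF11B by its brighter probe stood apart on 1 of the 4 arrays in each of 2 groups by Dixon's test. Near-term ductus replicate 3 read 1.25, against 0.24 to 0.31 on the other 3 arrays. Newborn ductus replicate 1 read 2.08, against 1.79 to 1.83. Among the 24 groups looked at for the probes of TNFRSF11B and TNFSF11 these were the 2 found, and chance gives about 1 in 20. The dimmer TNFRSF11B probe did not pass the test in either group, although near-term ductus replicate 3 was again the highest, at −0.54.

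For 3 genes of the lists the birth change differed between the vessels by limma's test of the difference. For IL6 the fitted birth change was 5.85 ± 0.76 larger in the ductus than in the aorta (limma adjusted p = 0.000427). Its probe was well above background on 0 of the 8 near-term and newborn aorta arrays and on 1 near-term ductus array, so that this value rests on levels below background, and with normexp it was 2.82 and the call was lost (limma adjusted p = 0.182). PTGS2 changed by 3.42 ± 0.42 more (limma adjusted p = 0.000268), by the brighter of its 2 probes, a call lost with quantile normalisation. SELP changed by 2.61 ± 0.54 more (limma adjusted p = 0.0323), a call lost under 4 of 10 alternatives and with 10 of the 16 arrays left out in turn. A second SELP probe gave 2.12 and was not called (limma adjusted p = 0.261). The same difference for TNFRSF11B, −0.26 ± 0.37, was not tested because the gene was chosen on the birth change in each vessel.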

How the results depend on the processing

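The 3 vessel differences and 2 birth rises of TNFRSF11B kept their sign under all alternatives. Over arrays with a limit under 1.5 the vessel difference was 0.62 in preterm fetuses and 0.55 in newborns, the aortic rise 2.28 and the birth change of ductus minus aorta −0.70. Over arrays with a limit above 1.5 the aortic rise was 1.11. With normexp that rise was 1.20 and the birth change of ductus minus aorta 0.20. By the dimmer probe the newborn vessel difference was 1.78, the aortic rise 0.34, the birth change of ductus minus aorta 0.89 and the preterm to near-term change of ductus minus aorta −0.30. From preterm to near term in the aorta the arrays with a limit under 1.5 gave −0.14. The cause was not tested.

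Leaving out 1 array at a time gave TNFRSF11B vessel differences of 0.91 to 1.15 in preterm fetuses, 0.99 to 1.34 near term and 0.76 to 1.14 in newborns. The birth rises were 1.27 to 1.61 in the ductus and 1.46 to 1.83 in the aorta, and their difference −0.47 to −0.01. Preterm to near term gave 0.41 to 0.76 in the ductus, 0.33 to 0.55 in the aorta and −0.021 to 0.33 for the difference, the lowest without near-term ductus replicate 3.

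With the replicate number as a block the TNFRSF11B differences were unchanged in size, at 1.01, 1.23 and 0.98 between the vessels, 1.36 and 1.62 at birth, 0.66 and 0.43 from preterm to near term, and −0.26 and 0.22 for the differences between the vessels. The block took the number of probes called in newborns from 1416 to 2016. Whether equal numbers pair the samples could not be told. Of 12 pairs of ductus and aorta of 1 stage 6 correlated above 0.1, with r from −0.59 to 0.82. The lowest r, for preterm replicate 1, was between arrays with spike-in limits of 0.88 and 2.08. The highest, for near-term replicate 3, was between arrays with limits of 2.43 and 2.44, so that these correlations cannot decide it. The number equals the slide row on all 24 arrays.

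Of 47 calls of named genes 12 held under every alternative and with each array left out, 35 were lost under at least 1 alternative and 22 with at least 1 array left out. The numbers of probes called ranged more widely: 12 to 378 for the preterm vessels (99), 11 to 942 near term (161), 371 to 2016 in newborns (1416), 614 to 5411 at birth in the ductus (1515) and 0 to 1497 in the aorta (902), 0 to 148 and 2 to 287 from preterm to near term in ductus and aorta (44 and 69), 33 to 153 for the difference at birth (55) and 0 to 13 for the earlier one (0). Dim probes, TNFSF11 among them, are limited by their signal over background.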
